A study of Mus musculus with 6 samples.

Results

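The proteasome genes described here were the 49 of 24411 genes in the deposited tables whose symbol is Psm followed by a letter from a to g and a number, which takes in the subunits of the 20S core and the 19S cap, the immunoproteasome subunits, the activators and the dedicated assembly chaperones. Their mRNA was measured by bulk RNA-seq after poly(A) selection, in 6 libraries from the marrow of C57BL/6 mice, to ask what loss of Brd9, a bromodomain subunit of the non-canonical BAF chromatin remodelling complex, does to hematopoietic stem and progenitor cells. The 3 Brd9 KO libraries came from CD45.2(+) Mx1-Cre Brd9fl/fl cells, and the 3 control libraries from CD45.2(+) Brd9fl/fl cells that carry no Cre, so that an effect of Cre and loss of Brd9 cannot be told apart. Both groups received 3 doses of pIpC (an RNA mimic that switches on Mx1-Cre) at 20 mg/kg, 8 weeks before the cells were prepared. In Brd9 KO mice Cre removes exons 4 to 6 of Brd9, and Mx1-Cre is also active in cells that are not hematopoietic. The sources differ on the cells: the labels give lineage-negative cells of femora and tibiae and speak of transplant recipients, the series design speaks of primary mice, and the methods of the study give Lin-c-Kit+ cells sorted from primary mice aged 4 months. The study describes this RNA-seq as done in biological triplicate for each model, while the labels do not say that replicates were separate animals. If they were not, a p-value covers no more than the spread among these 6 libraries. In bulk RNA fewer cells of a type and less mRNA per cell cannot be told apart.

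The proteasome is the protease that breaks down most short-lived and damaged proteins of the cytosol and nucleus after they are tagged with ubiquitin. Its 20S core is a barrel of outer alpha rings, which gate the entry, and inner beta rings, of which 3 subunits cut peptide bonds (Psmb5, Psmb6 and Psmb7). A 19S cap recognizes the tagged protein, removes the ubiquitin in its lid and unfolds the protein with the ATPases of its base. In immune cells and under interferon the catalytic subunits are exchanged for Psmb8, Psmb9 and Psmb10 to form the immunoproteasome, which makes peptides for MHC class I. Subunit genes are known to be transcribed together, and NFE2L1 raises them when proteasome activity is too low, through antioxidant response elements in their promoters.

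As nearly all subunit genes lay on the same side of control here, the promoters of the members that the results turn on were read from RefSeq (GRCm38.p6, the assembly that mm10 names). A promoter, defined as 250 bases before to 50 bases after the start, was found for 41 of the 49 members. Psma3 (chr12:70974373-70974672, plus strand), Psma5 (chr3:108256676-108256975, plus strand) and Psmg1 (chr16:95990911-95991210, minus strand) are shown as called members, and Psmb8 (chr17:34197945-34198244, plus strand) and Psmb9 (chr17:34187281-34187580, minus strand) as immunoproteasome members, each on the strand of its gene. The RefSeq window of Psma3 is set at a start that lies 5340 bases inside the span of its gene record, and 3 other members had 2 windows each. The fourth called member, Psmd7, is named only. Capitals mark matches on either strand to CCAAT in Psma3 and Psmb9, to GGAAG (the core of ETS sites) in Psma5 and to TTCNNNGAA (a gamma-activated site) in Psmg1 and Psmb8.
Psma3: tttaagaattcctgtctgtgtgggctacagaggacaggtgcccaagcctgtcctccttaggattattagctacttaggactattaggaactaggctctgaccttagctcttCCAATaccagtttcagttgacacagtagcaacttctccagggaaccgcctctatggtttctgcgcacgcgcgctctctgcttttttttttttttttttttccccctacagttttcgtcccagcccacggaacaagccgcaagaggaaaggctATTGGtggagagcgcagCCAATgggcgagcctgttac
Psma5: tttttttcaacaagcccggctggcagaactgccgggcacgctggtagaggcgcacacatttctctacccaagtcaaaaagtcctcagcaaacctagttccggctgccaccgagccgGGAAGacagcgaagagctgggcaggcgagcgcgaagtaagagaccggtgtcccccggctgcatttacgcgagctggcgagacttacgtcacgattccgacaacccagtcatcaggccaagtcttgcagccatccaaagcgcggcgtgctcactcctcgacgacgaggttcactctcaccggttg
Psmg1: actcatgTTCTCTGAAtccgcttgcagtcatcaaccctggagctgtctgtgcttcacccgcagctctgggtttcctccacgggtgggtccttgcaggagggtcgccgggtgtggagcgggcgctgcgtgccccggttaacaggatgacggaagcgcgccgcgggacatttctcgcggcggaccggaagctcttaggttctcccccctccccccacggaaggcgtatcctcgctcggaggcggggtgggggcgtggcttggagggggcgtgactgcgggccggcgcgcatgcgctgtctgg
Psmb8: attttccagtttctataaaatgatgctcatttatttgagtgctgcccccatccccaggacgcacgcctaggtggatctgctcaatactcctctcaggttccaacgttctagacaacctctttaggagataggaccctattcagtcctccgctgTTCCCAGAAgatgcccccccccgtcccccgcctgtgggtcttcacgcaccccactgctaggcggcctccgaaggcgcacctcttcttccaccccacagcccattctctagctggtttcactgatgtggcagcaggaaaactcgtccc
Psmb9: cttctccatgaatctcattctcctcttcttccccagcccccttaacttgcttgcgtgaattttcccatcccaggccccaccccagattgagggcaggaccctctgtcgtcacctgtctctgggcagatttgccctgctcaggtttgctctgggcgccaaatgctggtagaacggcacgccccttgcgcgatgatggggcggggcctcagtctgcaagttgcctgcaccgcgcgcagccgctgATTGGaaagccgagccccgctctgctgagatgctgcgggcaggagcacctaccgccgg

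Matches to the core of the antioxidant response element, TGACNNNGC, were found on either strand in the promoters of 6 of the 41 members (14.6%), against 12.4% of the 32851 promoters in the table. The stretch around each match is given with the match in capitals, on the strand that carries it, for Psmd9 at chr5:123228149-123228177 (plus strand), Psme4 at chr11:30771758-30771786 (minus strand), Psmb6 at chr11:70525338-70525366 (plus strand), Psmd12 at chr11:107479278-107479299 (minus strand), Psmc6 at chr14:45329587-45329615 (minus strand) and Psmb5 at chr14:54618024-54618052 (minus strand).
Psmd9: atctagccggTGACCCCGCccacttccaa
Psme4: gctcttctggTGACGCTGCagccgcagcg
Psmb6: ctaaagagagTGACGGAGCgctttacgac
Psmd12: ggggcaaatgTGACACAGCaga
Psmc6: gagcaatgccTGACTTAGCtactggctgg
Psmb5: cgtgaagttgTGACGTCGCggcgttgcca

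Of the other motifs searched on both strands, CCAAT was in 14 members (34.1%, against 37.4% of all promoters), TTCNNNGAA in 3 (7.32%, against 8.3%) and the NF-kB motif in 23 (56.1%, against 50.8%). The interferon-stimulated response element was in 5 members (12.2%, against 3.44%), namely Psmb3, Psmd4, Psmd9, Psme1 and Psmg4. GGAAG was in 37 members (90.2%, against 71.4%). Motifs were counted separately and matches of different motifs may overlap. For every motif, TGACNNNGC included, a member counted once if any of its windows matched, while the share of all promoters was counted by window. A match is a run of letters and not evidence of binding.

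Brd9 itself had 15.6, 13.5 and 21.0 CPM (counts scaled to library size by TMM) in Brd9 KO libraries 1, 2 and 3, against 45.9, 49.1 and 52.1 CPM in control libraries 1, 2 and 3. The groups did not overlap, and Brd9 mRNA in Brd9 KO fell by 1.56 ± 0.17 on the log2 scale (SE, edgeR adjusted p = 0.00345), which left 34.1% of the control level. An exact two-sided permutation test of these 6 values gave p = 0.1, the smallest that 3 against 3 libraries allow. Total counts per library ranged from 21151031 to 28500168. Brd9 KO 3 stood apart from the other libraries along the second principal component, which held 28.3% of the variance. The progenitor markers Kit (178 to 269 CPM in Brd9 KO, 205 to 229 CPM in control) and Cd34 (300.2 to 407 CPM and 277 to 372 CPM) were high in both groups, and the T cell receptor chain Cd3e (1.42 to 2.41 CPM and 1.05 to 1.80 CPM) was counted at a low level in both. Of 7 progenitor markers 1 was called, Mpo (myeloperoxidase), which fell by 0.98 ± 0.12 on the log2 scale (SE, edgeR adjusted p = 0.00574). Several lists of markers of cells other than progenitors moved with the groups. Of 8 stromal markers 6 rose in Brd9 KO, and the level summed over the 8 was 97.8 to 151 CPM in Brd9 KO and 34.1 to 51.6 CPM in control. Likewise 5 of 8 endothelial markers rose (184 to 217 CPM in Brd9 KO, 129 to 148 CPM in control). Most of that sum was Pecam1 (158 to 189 CPM and 108 to 126 CPM). So did 5 of 7 macrophage markers, while 1 fell (97.3 to 146 CPM and 91.6 to 131 CPM). NK markers rose in 4 of 7 cases, while 1 fell (151 to 209.7 CPM and 261 to 329 CPM). The NK sum was mostly Nkg7, the marker that fell (121 to 162 CPM and 231 to 306 CPM). The 4 that rose were low, as Gzma (8.08 to 17.6 CPM and 1.64 to 1.95 CPM) shows. Summed neutrophil markers were at 7515 CPM in Brd9 KO 3, against 1203 and 1399.7 CPM in the other Brd9 KO libraries and 1649.8 to 3018 CPM in control. No listed marker was at 0 in all 6 libraries. Of the 8 neutrophil markers the integrin Itgam rose (edgeR adjusted p = 0.0191) and the granule peptide Camp fell (edgeR adjusted p = 0.0573). Of 7 T cell markers 1 rose, the co-receptor Cd4, with 1.72 to 2.04 CPM in Brd9 KO and 0.530 to 0.994 CPM in control (edgeR adjusted p = 0.0343), and the 7 summed to at most 29.3 CPM in a Brd9 KO library and 20.2 CPM in a control library. Of 7 erythroid markers 1 fell, the globin Hbb-bt (edgeR adjusted p = 0.0864), and the 7 summed to 735 to 1665 CPM in Brd9 KO and 925 to 1333 CPM in control. None of 5 B cell and 8 dendritic cell markers was called by edgeR. The part of these other cells in the proteasome values was not tested.

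Brd9 KO libraries had slightly lower counts of nearly every proteasome gene than control libraries, and the difference passed the test in few of them. Of the 48 members tested, 47 had a log2 fold change below 0 (97.9%, against 48.2% of all 12953 genes tested; 41 members, against 25.1% of all genes, on the log2(TPM + 1) scale), with a median of -0.29, or 18.3% lower, against a median of 0.02 over all genes tested. Only 4 members were called lower (8.33%), Psma3, Psma5, Psmd7 and Psmg1, and 0 higher, where 6.25% of all genes were called lower and 9.19% higher (edgeR quasi-likelihood test, Benjamini-Hochberg adjusted p under 0.1 over all genes tested). The share of members called lower was thus near the background. At an unadjusted p under 0.05 edgeR gave 22 of the 48 members (45.8%), and 3548 of all 12953 genes tested. DESeq2 called 15 members lower and 0 higher, where it called 7.38% of all genes lower and 8.70% higher. The 15 were Psma3, Psma5, Psma7, Psma8, Psmb2, Psmb7, Psmc1, Psmc3, Psmc6, Psmd3, Psmd6, Psmd7, Psmd14, Psmg1 and Psmg3. Below, a gene that passed the test or was called did so in edgeR unless DESeq2 or limma is named. In 23 members (47.9%) all Brd9 KO libraries were below all control libraries, as was so for 16.3% of all genes. The log2 fold changes lay within a narrow range, between -0.50 for Psmg3 and 0.08 for Psme4, and no member changed by as much as the targeted gene.

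**Figure D1:**
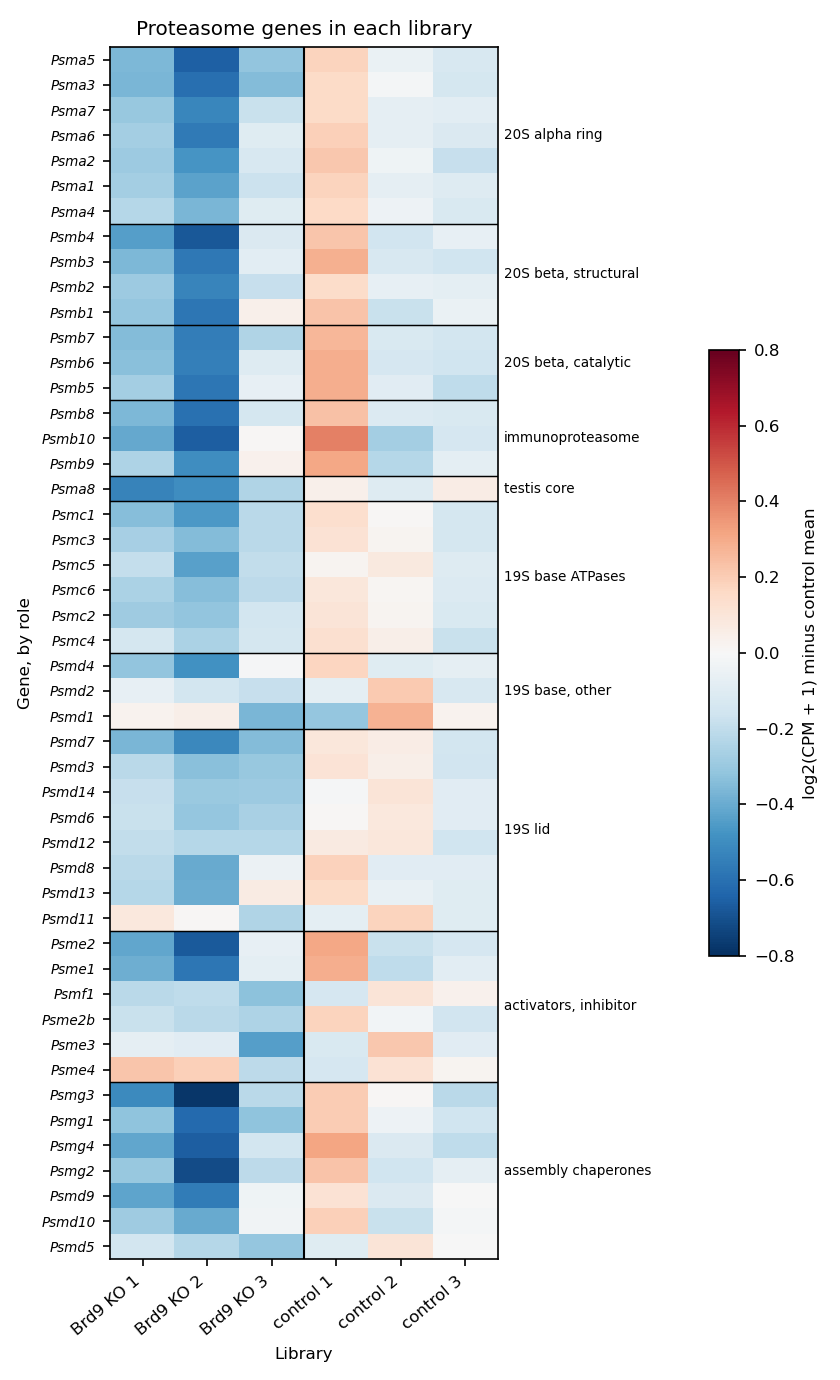
Level of the 48 tested proteasome genes (rows, ordered by role) in each of the 6 libraries (columns), as log2(CPM + 1) minus the mean of the 3 control libraries. Blue is below and red above the control mean. The column of Brd9 KO 2 is the darkest blue, with a median of -0.48, and that of control 1 the reddest, with a median of 0.16.

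The libraries of each group differed among themselves along the same direction. Relative to the control mean of log2(CPM + 1), the median member was at -0.28, -0.48 and -0.18 in Brd9 KO libraries 1, 2 and 3, and at 0.16, -0.05 and -0.12 in control libraries 1, 2 and 3. Brd9 KO 2 was the lowest library for 39 of the 48 members, and control 1 the highest for 36. Brd9 KO 3 was the highest of its group for 33 members and came close to control 3. Without Brd9 KO 3 edgeR called 31 members lower, where 15.3% of all genes were called lower. The calls also hung on other libraries: 0 members were called without Brd9 KO 1, Brd9 KO 2, control 1 or control 2 (edgeR, 4, 4, 7 and 13 members at an unadjusted p under 0.05), and without control 3 only Psmd7 was called. The share of all genes at that unadjusted threshold is not given for these fits. Calls over all genes fell in these fits as well, with 1.36%, 1.70%, 2.47% and 1.86% of all genes called lower without Brd9 KO 1, Brd9 KO 2, control 1 and control 2, and 2.64% without control 3.

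**Figure D2:**
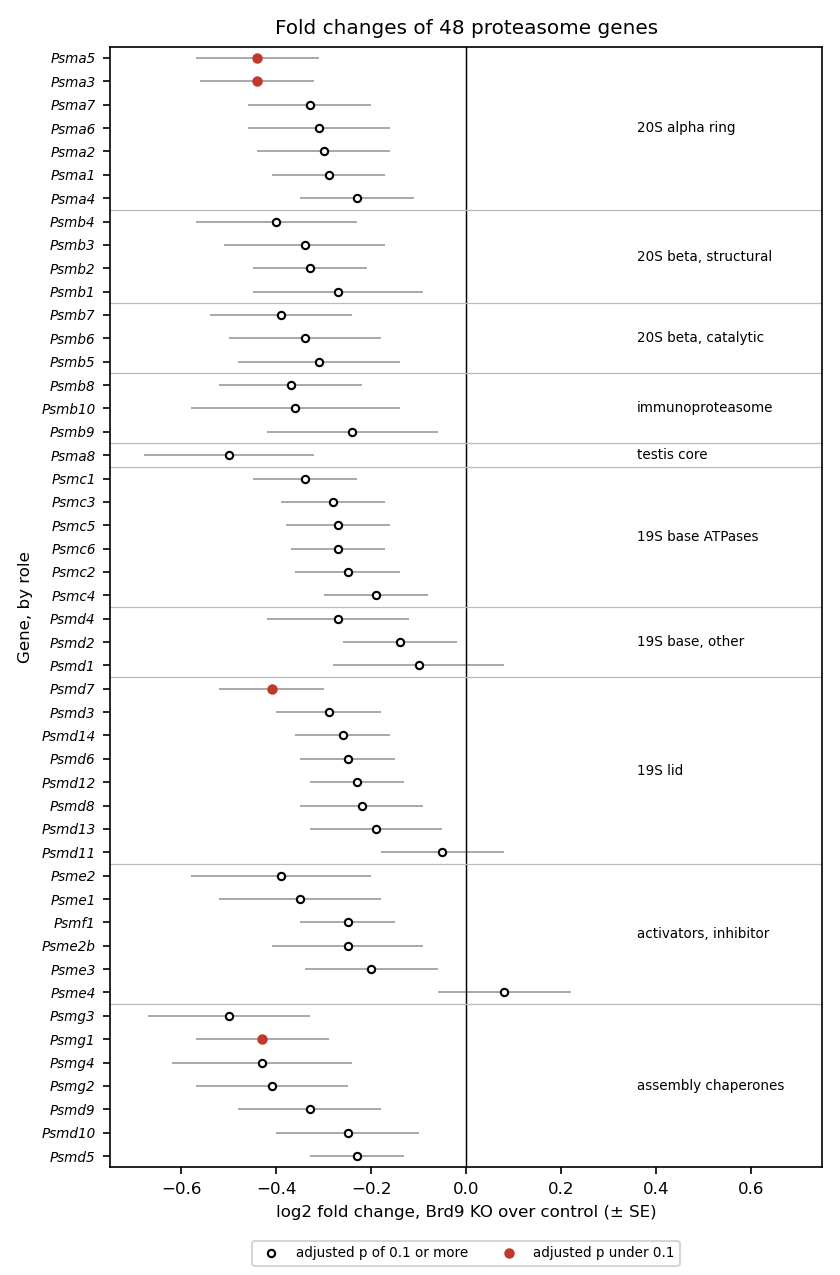
Log2 fold change, Brd9 KO over control, of the 48 tested proteasome genes, by role. Points are edgeR estimates from 3 Brd9 KO and 3 control libraries, bars are SE, and filled points mark an adjusted p under 0.1 (4 genes). In this TMM-scaled fit all points but that of Psme4 lie below 0.

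The alpha ring of the 20S core, which forms the gate of the barrel, held 2 of the 4 called members. Psma3 (alpha7, chr12:70969283-70995877) had 167, 141 and 169 CPM in Brd9 KO libraries and 239.6, 213 and 195 CPM in control libraries. Psma5 (alpha5, chr3:108256926-108279952) had 158, 129 and 163 CPM in Brd9 KO and 230.3, 196 and 186 CPM in control. For both genes every Brd9 KO library was below every control library. Psma3 fell by 0.44 ± 0.12 on the log2 scale (SE, edgeR adjusted p = 0.0672) and Psma5 by 0.44 ± 0.13 (edgeR adjusted p = 0.0826). The remaining 5 alpha genes did not pass the test and had log2 fold changes between -0.33 (Psma7) and -0.23 (Psma4), so that all 7 were below 0. Psma7 (alpha4), the most abundant proteasome mRNA per length, had 255, 219 and 278 CPM in Brd9 KO against 351, 299.5 and 297 CPM in control, again without overlap (edgeR adjusted p = 0.139). In TPM, which is per transcript length, Psma7 had 499, 469 and 442 in Brd9 KO and 497, 533 and 499 in control, so that the groups overlapped.

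The structural subunits of the beta ring, which do not cut, followed the same pattern with none of 4 called. Psmb4 (beta7) had 219, 186 and 275 CPM in Brd9 KO and 347, 268 and 284 CPM in control. The groups overlapped through Brd9 KO 3 alone, and the log2 fold change of Psmb4 was -0.40 ± 0.17 (SE, edgeR adjusted p = 0.167). Psmb3 (beta3) had 157, 135 and 190.2 CPM in Brd9 KO and 246, 184 and 180.5 CPM in control, with overlap, and a log2 fold change of -0.34 ± 0.17 (SE, edgeR adjusted p = 0.233). Psmb2 had a log2 fold change of -0.33 and Psmb1 of -0.27.

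Among the catalytic subunits, neither the 3 standard ones nor the 3 immunoproteasome ones passed the test, and the medians of their log2 fold changes were -0.34 and -0.36. Psmb5, which carries the chymotrypsin-like activity, had 148, 119.6 and 171 CPM in Brd9 KO and 219, 168 and 155 CPM in control. Psmb6, with the caspase-like activity, had 145, 125 and 170.4 CPM in Brd9 KO and 224, 167 and 164 CPM in control. Both overlapped between the groups, and their log2 fold changes were -0.31 ± 0.17 for Psmb5 and -0.34 ± 0.16 for Psmb6 (SE, edgeR adjusted p = 0.284 and 0.225). Psmb7, with the trypsin-like activity, had 150.5, 129.9 and 162 CPM in Brd9 KO and 229.9, 176 and 173 CPM in control. Its groups did not overlap, and its log2 fold change was -0.39 ± 0.15 (SE, edgeR adjusted p = 0.136). Some reads of Psmb5 were shared with other transcripts, since its expected count was not whole, and its level is therefore less certain.

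Psmb8, which replaces Psmb5 in the immunoproteasome and lies at chr17:34198195-34201454 in the MHC region, had 247, 209 and 288 CPM in Brd9 KO and 373, 294 and 291 CPM in control. The groups were separate by a narrow margin, and its log2 fold change was -0.37 ± 0.15 (SE, edgeR adjusted p = 0.173). Its neighbour Psmb9 (chr17:34182030-34187330), which replaces Psmb6, had 79.5, 66.5 and 96.6 CPM in Brd9 KO and 117, 80.4 and 89.2 CPM in control. Brd9 KO 3 lay above control libraries 2 and 3, and the log2 fold change of Psmb9 was -0.24 ± 0.18 (SE, edgeR adjusted p = 0.419), which turned to 0.02 once a trend with transcript length was removed. In GENCODE vM21, though not by the RefSeq positions, Psmb9 overlaps Tap1 on the opposite strand. As the labels call the libraries unstranded while the methods name a stranded kit, reads of the pair may not have been told apart. Psmb10 (chr8:105935728-105938392), which replaces Psmb7, had 86.7, 72.7 and 116 CPM in Brd9 KO and 153, 95.5 and 105 CPM in control. Its log2 fold change was -0.36 ± 0.22 (SE, edgeR adjusted p = 0.329), with overlap.

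The part of the catalytic subunit mRNA that came from the immunoproteasome overlapped between the groups. Of the summed TPM of the 6 catalytic genes, the immunoproteasome genes held 43.5%, 43.5% and 45.1% in Brd9 KO and 44.0%, 42.8% and 44.8% in control, with means of 44.0% ± 0.941 and 43.9% ± 1.02 (SD, n = 3 each). The ratio of Psmb8 to Psmb5 in TPM was 1.09, 1.14 and 1.11 in Brd9 KO and 1.12, 1.14 and 1.23 in control. For Psmb9 to Psmb6 it was 0.76, 0.74 and 0.78 in Brd9 KO and 0.72, 0.66 and 0.75 in control. All of these ranges overlapped, as did those of Psmb10 to Psmb7, at 0.41, 0.40 and 0.52 in Brd9 KO and 0.48, 0.39 and 0.44 in control. Lineage-negative marrow cells of both groups thus held Psmb8 mRNA at a level per length slightly above that of Psmb5, and Psmb10 mRNA below that of Psmb7.

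**Figure D3:**
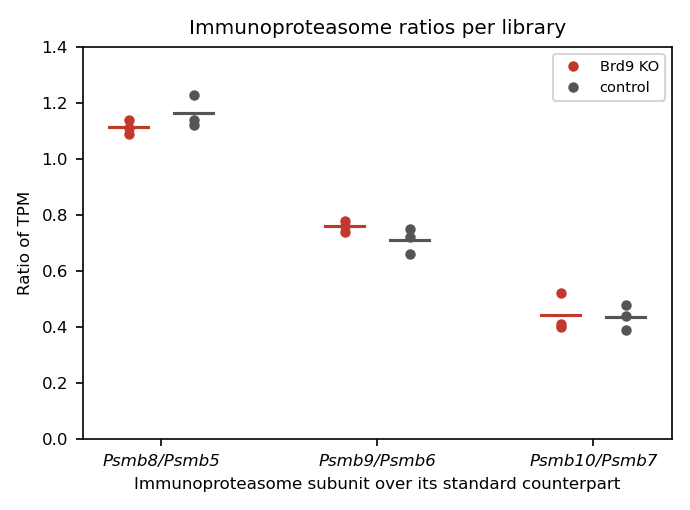
Ratio of the TPM of each immunoproteasome subunit to that of the standard subunit it replaces, for 3 Brd9 KO (red) and 3 control (grey) libraries. Points are libraries and lines are group means. The groups overlap for each of the 3 pairs, with means of 1.11 and 1.16 for Psmb8 to Psmb5 in Brd9 KO and control.

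Of the core subunits that belong to other tissues, Psma8, the alpha subunit of testis, was low but counted, and Psmb11, the thymus subunit, had 0 counts in all 6 libraries, which allows a level of up to 0.105 to 0.142 CPM per library (3 counts, for counting error only). Psma8 had 4.26, 4.40 and 5.45 CPM in Brd9 KO and 6.85, 6.11 and 6.96 CPM in control. Its groups did not overlap, and its log2 fold change of -0.50 ± 0.18 (SE, edgeR adjusted p = 0.128) matched the lowest of the members without passing the test. With Psma8 counted in and the immunoproteasome left out, the 20S core had 15 tested members, of which 2 were called lower, with a median log2 fold change of -0.33. Once a trend with transcript length was removed, the median of the core was -0.10.

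The 19S cap had 17 members, of which 1 was called lower, and all 17 had a log2 fold change below 0, with a median of -0.25. Once a trend with transcript length was removed, the median of the cap was -0.13. Psmd7 (Rpn8, chr8:107580380-107588482), the lid subunit that pairs with the deubiquitinase Psmd14, had 171, 154 and 173 CPM in Brd9 KO and 235, 229.8 and 199 CPM in control. The groups lay apart, and Psmd7 fell by 0.41 ± 0.11 on the log2 scale (SE, edgeR adjusted p = 0.0586), the smallest adjusted p among the members. Psmd14 had 146, 135 and 136 CPM in Brd9 KO and 165, 179 and 156 CPM in control, also without overlap, and a log2 fold change of -0.26 ± 0.10 (SE, edgeR adjusted p = 0.140). The other 6 lid genes did not pass the test and ranged from -0.29 (Psmd3) to -0.05 (Psmd11).

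None of the 6 ATPases of the base passed the edgeR test, with or without length offsets. DESeq2 called 3 lower, Psmc1 (adjusted p = 0.0630), Psmc3 (0.0975) and Psmc6 (0.0895), where it called 7.38% of all genes lower. Without Brd9 KO 3 edgeR called 5 lower, where 15.3% of all genes were. In 5 of the 6 ATPases all Brd9 KO libraries were below all control libraries, as was so for 16.3% of all genes. Psmc3 (Rpt5) had 211, 199.9 and 219 CPM in Brd9 KO and 276, 258 and 231 CPM in control, and a log2 fold change of -0.28 ± 0.11 (SE, edgeR adjusted p = 0.139). Psmc1 (Rpt2) had 177, 163 and 193 CPM in Brd9 KO and 246, 226 and 203 CPM in control, and a log2 fold change of -0.34 ± 0.11 (SE, edgeR adjusted p = 0.111). The ATPases Psmc2, Psmc4, Psmc5 and Psmc6 lay between -0.27 and -0.19. In TPM the groups overlapped for all 6, with sums of 1028, 1034 and 869.7 in Brd9 KO and 949.8, 1135 and 958 in control.

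In the TMM-scaled fit the base subunits that are not ATPases had the median closest to 0 within the cap, at -0.14 over 3 genes, of which 0 were called. With length offsets that order did not hold, as the medians were -0.14 for these genes, -0.14 for the ATPases and -0.10 for the lid. Psmd4 (Rpn10), a receptor for ubiquitin chains, had 164, 146 and 203 CPM in Brd9 KO and 230.4, 191 and 195 CPM in control, and a log2 fold change of -0.27 ± 0.15 (SE, edgeR adjusted p = 0.273). Psmd2 (Rpn1), a large scaffold, had 287, 271 and 264 CPM in Brd9 KO and 284, 347 and 275 CPM in control. Its groups overlapped, and its log2 fold change of -0.14 ± 0.12 (SE, edgeR adjusted p = 0.468) turned to 0.08 on the log2(TPM + 1) scale, where the median over all genes was 0.18. The other scaffold, Psmd1 (Rpn2), had a log2 fold change of -0.10. Whether base, lid and core differed from each other was not tested.

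Among the activators and the inhibitor, which bind the ends of the core in place of the cap or compete for them, none of 6 was called and 5 were below 0. Psme1 had 207, 182 and 257 CPM in Brd9 KO and 332, 236 and 256 CPM in control. Psme2 had 122, 102 and 156 CPM in Brd9 KO and 203, 144 and 149 CPM in control. These genes encode the interferon-inducible activator PA28, and in both Brd9 KO 3 overlapped the control libraries. Their log2 fold changes were -0.35 ± 0.17 for Psme1 and -0.39 ± 0.19 for Psme2 (SE, edgeR adjusted p = 0.230 for each). Psme2b had 7.28, 7.06 and 6.90 CPM in Brd9 KO and 9.58, 8.22 and 7.43 CPM in control. Psme2 and Psme2b had expected counts that were not whole, so reads were shared with other transcripts, and Psme2b also overlaps another gene on its strand. Psme4 (PA200), the longest transcript of the members, was the only gene above 0, with 98.6, 96.6 and 73.1 CPM in Brd9 KO and 76.8, 91.6 and 85.8 CPM in control. The groups overlapped, and its log2 fold change of 0.08 ± 0.14 (SE, edgeR adjusted p = 0.749) turned to -0.15 once a trend with transcript length was removed. Psme3 (-0.20) and the inhibitor Psmf1 (-0.25) did not pass the test.

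The assembly chaperones, which hold unfinished rings and are not part of the finished particle, had the lowest median of the roles with more than 1 tested member, at -0.41 over 7 members, of which 1 was called. Psmg1 (chr16:95979933-95990960), which with Psmg2 starts the alpha ring, had 44.2, 35.7 and 44.1 CPM in Brd9 KO and 64.0, 53.9 and 49.5 CPM in control. Psmg1 fell by 0.43 ± 0.14 on the log2 scale (SE, edgeR adjusted p = 0.0929), with no overlap. Psmg3, with the lowest log2 fold change of the members (-0.50 ± 0.17, SE, edgeR adjusted p = 0.110), had 34.9, 28.8 and 43.0 CPM in Brd9 KO and 57.9, 50.4 and 43.0 CPM in control, so that Brd9 KO 3 met control 3. Psmg4 (-0.43), which acts with Psmg3, and Psmg2 (-0.41) did not pass the test. The chaperones of the base ATPases, Psmd9 (-0.33), Psmd10 (-0.25) and Psmd5 (-0.23), did not pass it either.

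Between these libraries the fold change of a gene also varied with the length of its transcript, and proteasome transcripts are short. The median transcript length of the tested members was 1286 bases, against 2755 bases over all genes tested. All genes with transcripts under 1000 bases had a median log2 fold change of -0.28, those of 1000 to 1500 bases -0.19, those of 3000 to 5000 bases 0.08 and those over 5000 bases 0.24. The 14 members under 1000 bases had a median of -0.35, and the 16 members of 1000 to 1500 bases a median of -0.28. Of the 48 members, 45 were below the median of all genes of their length class. Across genes the log2 fold change and the transcript length had a Spearman correlation of 0.38 over all genes tested and 0.56 over the members, which is a description, as genes share the same libraries.

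**Figure D4:**
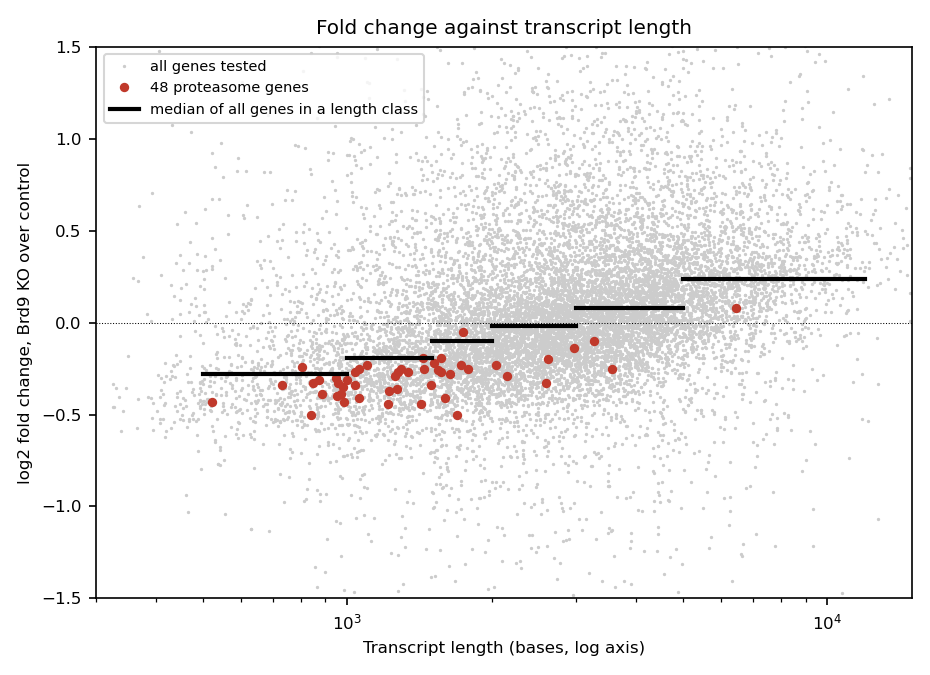
Log2 fold change, Brd9 KO over control, against transcript length (log axis) for all genes tested (grey) and the 48 proteasome genes (red), with the most extreme genes outside the frame. Black lines are medians of all genes in 6 length classes. Most red points lie under 3000 bases and below the black lines, whose medians are -0.28 in the shortest class and 0.24 in the longest.

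The length trend was present between libraries of the same group as well. Relative to the control mean, genes under 1000 bases were at a median of -0.31, -0.50 and 0.03 in Brd9 KO libraries 1, 2 and 3 and at 0.23, -0.17 and -0.07 in control libraries 1, 2 and 3. The difference between a transcript's length and its effective length, which follows the length of the sequenced fragments, was 203.1, 204.7 and 199.9 bases in Brd9 KO and 197.6, 203.2 and 202.2 bases in control. The libraries with the lowest and the highest proteasome levels in CPM, Brd9 KO 2 and control 1, were also at the ends of both measures. In summed TPM the lowest and the highest were Brd9 KO 3 and control 2. Set against all genes of the same length class, the median member was at -0.09, -0.12 and -0.20 in Brd9 KO libraries and at 0.01, 0.07 and -0.07 in control libraries. On that scale every Brd9 KO library was below every control library, and Brd9 KO 3 was the lowest. When the length trend of each library was removed by offsets in the edgeR fit, a setting chosen after seeing the data, the median log2 fold change of the members was -0.13, with 46 of 48 below 0. With these offsets the log2 fold change and the transcript length had a Spearman correlation of -0.01 over all genes tested. Over the members the correlation was -0.37, so the longer members tended to lie lower there. In that fit 5 members were called lower, where 9.98% of all genes were (0 higher, against 11.8%), namely Psma3 (-0.29, edgeR adjusted p = 0.0523), Psma5 (-0.26, 0.0675), Psmd7 (-0.29, 0.0626), Psmb4 (-0.18, 0.0949) and Psmf1 (-0.31, 0.0208). Psmg1 was no longer called (-0.20, 0.197). The part of fragment length in the lower proteasome counts was not tested.

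In TPM, which is per length, the fold changes of the members lay closer to 0. Their distance to the median of all genes was nearly as large as in TMM-scaled counts (-0.25, against -0.31). This distance still holds the length trend, as TPM moved short and long members up alike. Psma5 (1217 bases) moved from -0.44 to -0.23 and Psme4 (6442 bases) from 0.08 to 0.27. With length offsets the median of the members was -0.13, against 0.00 over all genes tested. The TPM of all 49 members summed to 9298, 8885 and 8407 in Brd9 KO and 9427, 9955 and 9065 in control, or 0.930%, 0.888% and 0.841% of all transcripts against 0.943%, 0.995% and 0.907%. Brd9 KO 1 overlapped the control libraries. On the log2(TPM + 1) scale the median over all genes moved to 0.18 and that of the members to -0.07, and 41 members were below 0, as were 25.1% of all genes. In TPM the groups were separate in 11 members, all lower (22.9%, against 5.96% of all genes), and limma on log2(TPM + 1) called 0 members at an adjusted p under 0.1 (3 at an unadjusted p under 0.05), where it called 1.73% of all genes lower and 8.60% higher.

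**Figure D5:**
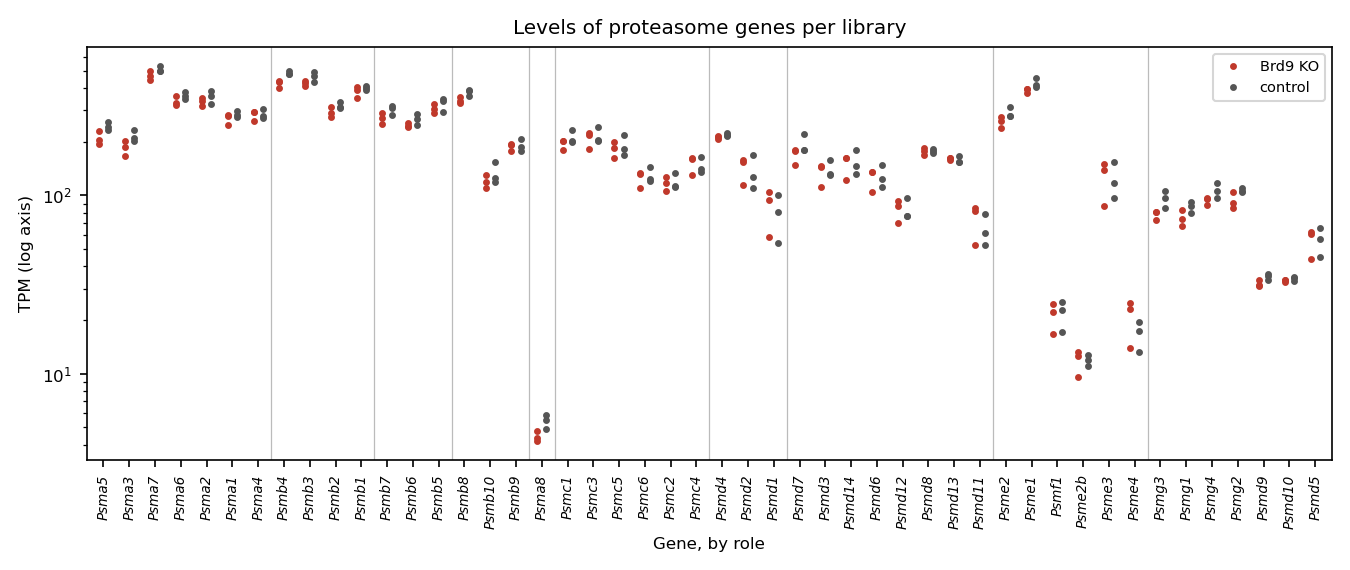
TPM (log axis) of the 48 tested proteasome genes by role in 3 Brd9 KO (red) and 3 control (grey) libraries, each point a library. Most core subunits lie above most cap subunits, and the levels differ more between genes than between the groups.

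Subunits that stand in the same particle did not have the same mRNA level per length. In Brd9 KO the mean TPM of alpha genes ranged from 184 (Psma3) to 469.8 (Psma7), and in control from 215 (Psma3) to 509.7 (Psma7). ATPase genes ranged from 117 (Psmc2) to 208 (Psmc3) in Brd9 KO and from 119 (Psmc2) to 217 (Psmc3) in control. Lid genes ranged from 73.0 (Psmd11) to 177 (Psmd8) in Brd9 KO and from 64.5 (Psmd11) to 193 (Psmd7) in control. The median member had a mean TPM of 168, against 14.6 over all genes tested. Below the core subunits stood Psme4, at 23.2, 24.9 and 14.0 TPM in Brd9 KO and 13.2, 19.6 and 17.4 TPM in control, and Psme2b, at 12.5, 13.2 and 9.62 TPM in Brd9 KO and 11.9, 12.8 and 11.0 TPM in control. Psma8 was the lowest of those tested, at 4.20, 4.75 and 4.37 TPM in Brd9 KO and 4.91, 5.48 and 5.90 TPM in control. The neighbours in this order overlapped in many cases, as Psma1 (269.8 ± 19.1 TPM in Brd9 KO, 284 ± 11.1 TPM in control) and Psmb7 (271 ± 18.5 and 304 ± 17.7 TPM, SD, n = 3 each) show.

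Other genes of the pathway were taken from lists by function and are given whole. Of 7 subunits and assembly factors that bear other names, 1 was called lower, and their median log2 fold change was -0.30. That gene was Txnl1, a thioredoxin-like protein bound to the cap, with 153, 142 and 136 CPM in Brd9 KO and 202, 185 and 183 CPM in control. The groups lay apart, and Txnl1 fell by 0.40 ± 0.10 on the log2 scale (SE, edgeR adjusted p = 0.0504), and by 0.38 with length offsets. The assembly factor Pomp (-0.33), the ubiquitin receptor Adrm1 (-0.28) and the lid subunit Shfm1 (-0.39) did not pass the test. Besides Txnl1, DESeq2 called Adrm1 lower (adjusted p = 0.0813), and edgeR with length offsets called AI314180 lower (adjusted p = 0.0670).

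Of 5 deubiquitinases and ligases that bind the proteasome edgeR called none (median -0.03), and Uchl5, a deubiquitinase of the cap, had 93.7, 91.8 and 102 CPM in Brd9 KO and 125, 127 and 107 CPM in control, without overlap. Its log2 fold change of -0.32 ± 0.11 (SE, edgeR adjusted p = 0.106) passed the test in DESeq2 (adjusted p = 0.0615). With length offsets edgeR called another of the 5 lower, the deubiquitinase Usp14 (adjusted p = 0.0415). None of 14 shuttle factors and p97 complex genes was called (median -0.08). Vcp, the p97 ATPase that pulls ubiquitinated proteins apart, had 690.4, 657 and 624 CPM in Brd9 KO and 672, 765 and 663 CPM in control. Its log2 fold change of -0.09 turned to 0.13 on the log2(TPM + 1) scale, where the median over all genes was 0.18. Of 14 genes for ubiquitin and its activation 0 were called (median -0.16). None of 13 genes of class I antigen presentation was called (median -0.13), and B2m, the light chain of MHC class I, had 1082, 943 and 1318 CPM in Brd9 KO and 1518, 1146 and 1308 CPM in control. In these 3 lists DESeq2 called 1 gene lower, of the ubiquitin list, where it called 7.38% of all genes lower. With length offsets edgeR called lower 2 of the 14 shuttle and p97 genes and 2 of the 13 antigen presentation genes, where 9.98% of all genes were.

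Of the 8 listed factors that drive or restrain proteasome genes when its activity is too low, 1 was called higher and 0 lower. Over all genes 9.19% were called higher and 6.25% lower. The median log2 fold change of the 8 factors was 0.20, and only that of Keap1, which holds NFE2L2 back, was below 0 (-0.12). Nfe2l1 had 113, 119 and 98.1 CPM in Brd9 KO and 88.0, 109 and 96.5 CPM in control, with overlap and a log2 fold change of 0.17 (edgeR adjusted p = 0.401). Mafg, a small Maf protein that pairs with NFE2L1 and NFE2L2 on antioxidant response elements, had 51.7, 49.3 and 52.4 CPM in Brd9 KO and 27.1, 29.8 and 31.8 CPM in control. Mafg rose by 0.79 ± 0.10 on the log2 scale (SE, edgeR adjusted p = 0.00578), a larger change than that of any proteasome gene. Its relative Mafk had 55.7, 49.0 and 48.1 CPM in Brd9 KO and 41.5, 43.8 and 45.5 CPM in control, also without overlap. Mafk did not pass the test (0.22 ± 0.10, SE, edgeR adjusted p = 0.196), but edgeR with length offsets called it higher (0.22, adjusted p = 0.0961). The members whose promoters hold the TGACNNNGC letters, Psmb5, Psmb6, Psmc6, Psmd9, Psmd12 and Psme4, had log2 fold changes of -0.31, -0.34, -0.27, -0.33, -0.23 and 0.08, and all of these but that of Psme4 lay within the range of the other members.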

How the data were processed

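Bulk RNA-seq was analysed in 3 Brd9 KO and 3 control libraries, grouped and numbered by their sample titles. According to the methods of the study, the authors aligned reads with STAR and counted them with RSEM in an nf-core pipeline, on mm10. The deposited expected counts are estimated counts per gene that divide reads shared between transcripts. The deposited TPM were computed by the authors' RSEM run and scale by effective transcript length, which the deposited tables also give.

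Expected counts were rounded, filtered with filterByExpr (53.1% of 24411 genes kept, 12953 genes) and scaled by TMM (factors 0.927 to 1.077). Groups were compared with edgeR 4.0.16 in R 4.3.3, by its quasi-likelihood test and without a covariate. Benjamini-Hochberg adjustment ran over the 12953 genes, and genes with an adjusted p under 0.1, the threshold of the study, were called. The common biological coefficient of variation was 0.175. SE was taken as the size of the log2 fold change over the root of its F statistic. DESeq2 1.42.0 (in the study run with IHW, a weighting not used here) and limma 3.58.1 on log2(TPM + 1) and log2(TPM + 0.1) were run as alternatives, with other scalings, no filter, a stricter threshold of 0.05, each library left out and the replicate number as a block. After seeing the data, offsets for the trend with transcript length (loess, span 0.5) were added. The scripts were checked on simulated counts. Libraries of a group differed by more than counting noise (chi-square over its degrees of freedom 11.1 to 84.7), so none was taken for a copy.

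Gene positions and promoters came from RefSeq (GRCm38.p6) and overlaps from GENCODE vM21, read with Python 3.11.15. Expected counts of 3 members were not whole in some library (tolerance 0.005), and 9 members overlap another gene of the tables. Where that gene is on the opposite strand, as for Psmb7, Psmc3 and Psme1, reads may not have been told apart either. Protein sequences were not analysed here. The symbols Sem1, Paaf1, Ecpas, Ufd1, Trac, Ly6g and Epb42 were not matched (Shfm1, AI314180 and Ufd1l were).

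The members and gene lists were chosen with earlier results of these data known. The naming rule took Brd9, the immunoproteasome subunits and those they replace, up to 4 called members of each role (or the 2 most abundant), the members with extreme TPM or fold change, members not tested, and from each list of other genes the called ones or the most abundant. Other genes named here were chosen after their values were seen. A gene that the rule names is not reported here.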

Additional observations from a re-analysis of the deposited data

How the results depend on the processing

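At an adjusted p under 0.05, and with limma on log2(TPM + 1) or log2(TPM + 0.1), 0 members were called lower, so 0 of the core and 0 of the cap. At an unadjusted p under 0.05 edgeR gave 22 members, and 3548 of all 12953 genes tested. The TPM fits gave 3 and 2 members there, for which the share of all genes is not given. DESeq2 called 15 members lower, 6 of the core and 7 of the cap. Leaving out 1 library gave between 0 and 31 members called lower, between 0 and 13 of the core, between 0 and 8 of the cap and between 0 and 2 of the immunoproteasome, and between 641 and 4150 of all genes called in either direction, against 1999, the highest always without Brd9 KO 3. At 0.05 edgeR called 1015 of all genes in either direction. The median log2 fold change of the members was -0.07 in both TPM fits, -0.13 with length offsets and -0.11 with length offsets and without Brd9 KO 3, both chosen after seeing the data. The last setting called 6 members lower, where 12.6% of all genes were called lower (3411 were called in either direction). In TPM 11 members were separate (22.9%, against 5.96% of all genes), and in CPM 23 were (47.9%, against 16.3%). With a library left out between 23 and 43 were separate in CPM. Fewer libraries separate more readily, and the share of all genes is not given there, so these counts cannot be set against 23. With length offsets Psmb9 turned to 0.02 (0.04 also without Brd9 KO 3) and Psme4 to -0.15 (-0.12), and with both settings B2m turned to 0.01 and Psme2b to 0.11. In both TPM fits Psmd2 turned to 0.08 and Vcp to 0.13. On the log2(TPM + 1) scale the median over all genes was 0.18, above both. With length offsets Psmd2 was at -0.15 and Vcp at -0.13. The cause of these turns was not tested. No member was called higher in any setting run.

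The replicate numbers did not pair the libraries (correlations of deviations -0.10, 0.61 and 0.01), and not every library correlated best with its own number. With the replicate number as a block 5 members were called lower, against 4, and 792 of all genes were called lower, against 809 (2077 in either direction, against 1999). Depth limited little here, as 48 members were counted in every library.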
